A study of Mus musculus with 14 samples.

Results

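The comparison described here is the loss of Apoe in mouse visceral fat on a normal diet: 4 arrays of epididymal fat from EKO mice (the group EKO_ND) against 3 arrays from WT mice (WT_ND), 7 of the 14 arrays of the series. EKO is the name that the labels give to the mice changed in apolipoprotein E. How the allele was made, and which part of the gene it removes, is not given in the sources used here. Both groups were male C57BL6/J mice that ate the normal diet for 24 weeks from 8 weeks of age. The other 7 arrays came from EKO (n = 4) and WT (n = 3) mice on a Western diet of 42% milk fat for the same 24 weeks, and serve here only to set the same gene beside a second set of animals. Total RNA of whole epididymal fat pads was labelled with biotin and hybridised to an Affymetrix whole-transcript array, 1 array a mouse as the labels number the biological replicates. All values are deposited log2 RMA levels, a summary of the brightness of all probes of a probe set, so a difference of 1 is a factor of 2. The table held 19937 genes with 1 symbol each, and a gene was represented by its brightest probe set.

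Apolipoprotein E is a lipid-binding protein of lipoprotein remnants and of high-density lipoprotein, and a ligand of the LDL receptor family. The liver makes most of the plasma pool, while macrophages and adipocytes make their own. Mice without it clear remnants slowly and have high plasma cholesterol even on chow. In fat, locally made apolipoprotein E is known to take part in the traffic of lipid between lipoproteins and adipocytes.

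The defining markers of the labelled tissue were high on every array. Adipoq, the gene of adiponectin, read 13.41 to 13.55 on the EKO arrays and 13.48 to 13.53 on the WT arrays, and Plin1, the coat protein of the lipid droplet, 13.42 to 13.58 on EKO and 13.45 to 13.49 on WT. These lie near the top of the scale, whose highest value was 14.546. Arrays of 1 normal-diet group correlated at 0.9811 to 0.9912 over the tested genes. EKO replicate 2 and WT replicate 1 had a higher array background, read from rows for olfactory and vomeronasal receptors (6.77 and 6.76), than the other 5 normal-diet arrays. EKO replicate 3 stood apart in another way: seminal vesicle genes were high on it alone. Svs2, a seminal vesicle secretory protein, read 12.25 on that array, 6.31 to 6.59 on the other EKO arrays and 6.56 to 6.60 on WT, and Svs5 read 11.83 there. Seminal vesicle genes were picked after their values were seen, and results that rest on EKO replicate 3 are given with and without it. On Western diet WT replicate 1 stood apart too. The mean of the liver genes was 9.74 on it, 7.591 and 7.615 on the other WT arrays and 7.694 to 7.858 on EKO. Apolipoprotein genes had a mean of 9.682 on it, against 9.107 and 9.105 on the other WT arrays. Western-diet differences were not recomputed without that array. The number of arrays limits the precision of each value.

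Apoe was the single gene of 19937 that passed the threshold, an adjusted p under 0.05 from limma (0.00502% of genes tested). No gene passed as higher in EKO (0.0%), and 1 passed as lower (0.00502%). A looser cut, an unadjusted p under 0.05, held 226 genes (1.13%), 86 of them higher in EKO (0.431%) and 140 lower (0.702%), where 996.85 would be expected if no gene differed. On Western diet the same test between EKO and WT called 1134 genes (5.69%), 326 higher (1.64%) and 808 lower (4.05%). Without EKO replicate 3 the normal-diet test again called 1 gene, with 238 at the looser cut. That looser count was 485 without WT replicate 1 and 422 without EKO replicate 4. With array background as a block it was 559, and with array weights 1019. As 226 lies below 996.85, the p-values of the main fit ran high, for a reason that was not tested. The few calls therefore do not show that no other gene differs. Among the 13120 rows of the table that do not carry 1 symbol, a fit over all 34760 rows called 0, with 316 at an unadjusted p under 0.05.

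The arrays could nonetheless bound most differences of array signal closely. The median standard error of a gene's EKO minus WT difference was 0.12. For 18767 genes (94.1%) the 95% interval of the difference lay within a factor of 1.5 in both directions, and for 19801 (99.3%) within a factor of 2. The measured difference exceeded a factor of 1.5 for 39 genes on normal diet and 926 on Western diet. It exceeded a factor of 2 for 7 genes on normal diet and 236 on Western diet. The 7 include Apoe, Apod and Apoc1, and Svs2 and Svs5, which were high on EKO replicate 3 alone. Apod and Apoc1 were not the extremes after Apoe. The largest rise was 1.86, of a gene on chromosome 6, and the largest fall after Apoe was -1.39, of a gene on chromosome 11. Neither passed the threshold. A total of 3564 genes sat at the array background in both normal-diet groups, where no difference could be read. They are counted in the 94.1% and 99.3%, and a narrow interval there does not bound a difference of RNA. The cut was the highest array background (6.84), itself a mean over 1204 receptor rows, so some receptor rows lie above it. Vmn1r174, a vomeronasal receptor, read 7.33 in EKO and 7.16 in WT. Genes outside the 3564 that read little above the cut may thus be unreadable too.

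Apoe fell in EKO fat. Its level was 9.46, 9.75, 9.99 and 9.74 on the EKO arrays, against 13.14, 13.61 and 13.46 on the WT arrays. Its 4 EKO arrays lay far below all 3 WT arrays. The means were 9.74 ± 0.22 in EKO (SD, n = 4) and 13.41 ± 0.24 in WT (SD, n = 3). The difference was -3.67 ± 0.16 (SE; limma, adjusted p = 1.32e-08), a signal 12.7-fold lower, or 7.85% of that in WT. The EKO level still lay above the array background of 6.29 to 6.84. Which part of the transcript the probe set reads relative to the altered part of the allele is not known here. Blocking on array background gave -3.68. Arrays of lower background alone gave -3.81, and the single pair of higher background differed by -3.40. In the other animals, on Western diet, it was -3.36 (adjusted p = 4.6e-08).

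**Figure D1:**
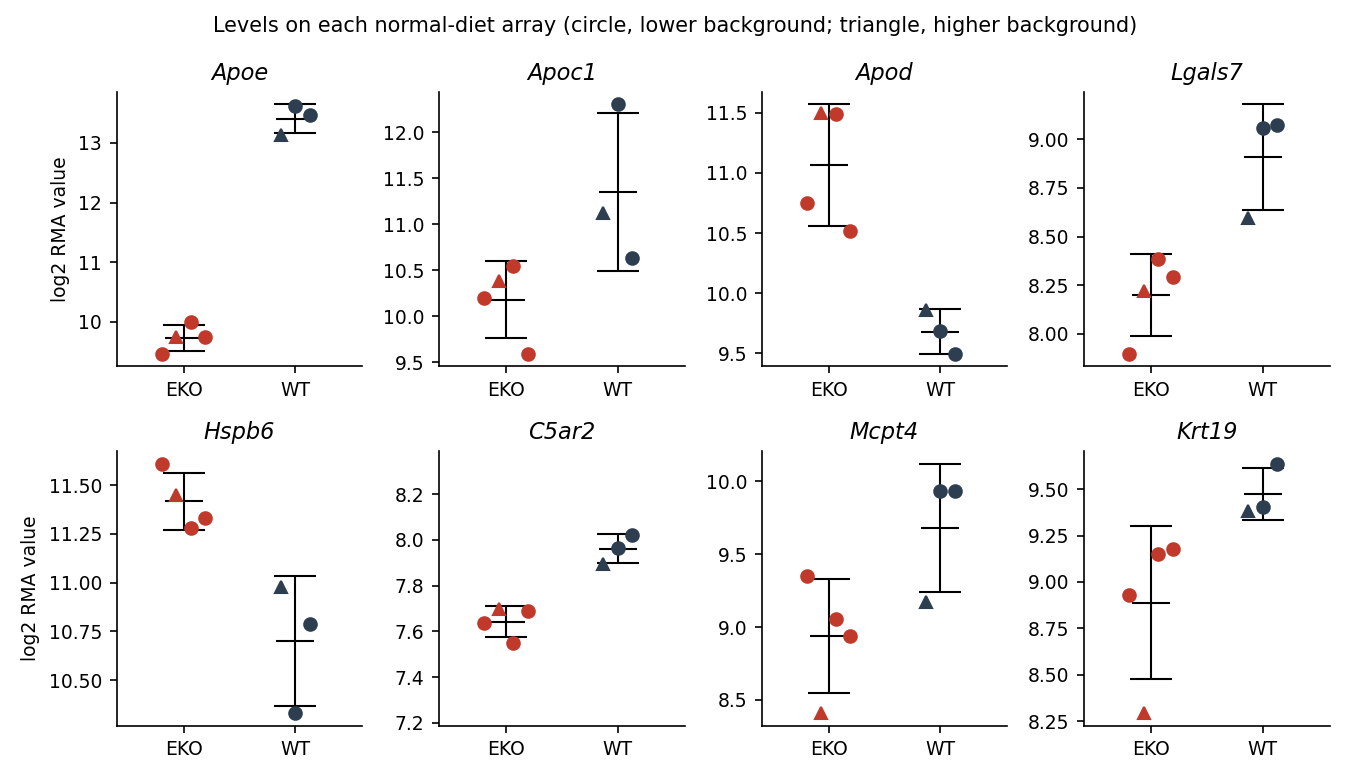
Levels (log2 RMA value, vertical axis, range set for each gene and not starting at 0) of 8 genes on each normal-diet array, EKO left and WT right. Points are arrays, circles with lower and triangles with higher array background, and bars show the mean and SD. The EKO arrays lie below all WT arrays for Apoe (9.46 to 9.99 against 13.14 to 13.61) and above all WT arrays for Apod (10.52 to 11.50 against 9.49 to 9.86), while for Mcpt4 the groups overlap.

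The promoters of Apoe and Apod are shown because these were the pair of genes with the smallest p. Each runs from 250 bases before to 50 after the transcript start in RefSeq (mouse GRCm38.p6, minus strand), Apoe at chr7:19699139-19699438, where the table holds 3 starts and the most upstream one was used, and Apod at chr16:31314759-31315058. Neither window holds any of 4 motifs searched on both strands: TATAAA, found in 13.6% of 32851 promoters of the same length, GGGCGG (35.7%), AGGTCA (16.3%) and AGATAA (11.2%), so no base is in capitals. A missing match says only that these letters are not in the window.
Apoe: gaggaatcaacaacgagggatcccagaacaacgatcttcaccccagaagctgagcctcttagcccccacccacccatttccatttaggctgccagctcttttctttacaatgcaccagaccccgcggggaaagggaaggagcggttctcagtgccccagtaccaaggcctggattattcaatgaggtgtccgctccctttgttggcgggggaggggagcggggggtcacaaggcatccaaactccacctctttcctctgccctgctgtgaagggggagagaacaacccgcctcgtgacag
Apod: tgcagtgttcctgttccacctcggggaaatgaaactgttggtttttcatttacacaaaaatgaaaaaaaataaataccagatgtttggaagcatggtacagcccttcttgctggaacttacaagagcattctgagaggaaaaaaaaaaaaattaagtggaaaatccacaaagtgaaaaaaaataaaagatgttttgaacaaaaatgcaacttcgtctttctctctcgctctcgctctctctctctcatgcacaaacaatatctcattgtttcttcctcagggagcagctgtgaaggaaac

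Apolipoprotein D, a lipocalin that carries arachidonic acid and other small lipids, had the second smallest p. Apod read 10.75, 11.50, 11.49 and 10.52 on the EKO arrays, against 9.86, 9.68 and 9.49 on the WT arrays. All EKO arrays were above all WT arrays, and EKO replicates 2 and 3 were the highest. The difference was 1.39 ± 0.20, a factor of 2.61, with adjusted p = 0.0568, so Apod did not pass. It did pass in 7 alternatives, among them the fit blocked on array background (1.40, adjusted p = 0.0214) and the fit without EKO replicate 4 (1.57, adjusted p = 0.00361). It did not pass without EKO replicate 3 (1.24, adjusted p = 0.17), nor within the arrays of lower background (1.33, adjusted p = 0.386), and over all alternatives its adjusted p ranged between 0.00361 and 1.0. The pair of arrays of higher background differed by 1.63. On Western diet the difference was 0.28 (adjusted p = 0.49), and the diets' differences did not pass a test against each other (adjusted p = 0.105).

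Of the apolipoprotein list 16 of 19 genes were measured, and Apoe was the 1 that passed. Apoc1, whose protein inhibits lipoprotein lipase and lies beside Apoe in the genome, read 10.20, 10.38, 10.55 and 9.59 on the EKO arrays, against 11.12, 12.30 and 10.63 on the WT arrays. The groups did not overlap, but WT replicate 3 lay next to EKO replicate 3, and WT replicate 2 was the highest. The difference was -1.17 ± 0.33 (adjusted p = 1.0), and -0.69 without WT replicate 2. Apoc4, of the same cluster, differed by 0.14, and Apoc3, an inhibitor of triglyceride clearance, by -0.15. The remaining rule-named members were Apol6 at 0.11, Clu, a secreted chaperone, at -0.12, and Mttp, which loads lipid onto apolipoprotein B, at -0.11. Apart from Apoe, Apod and Apoc1, the groups overlapped in every measured member. The list's median was -0.030, beside -0.0064 over all genes tested.

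Receptors and lipases that act on apolipoprotein E particles showed no difference that passed. All 27 measured members had differences between -0.26 and 0.16, 13 above and 14 below 0, and none reached an unadjusted p under 0.05. Vldlr, the very-low-density lipoprotein receptor and a route of apolipoprotein E particles into fat cells, read 10.51, 10.39, 10.65 and 10.95 on the EKO arrays and 10.80, 10.79 and 10.96 on the WT arrays. The ranges overlapped, with a difference of -0.23 on normal diet and -0.75 on Western diet (adjusted p = 0.0108). Lrp1, a remnant receptor, differed by -0.10 and Lrp6, a Wnt co-receptor, by -0.16. Scarb1, the HDL receptor, differed by 0.14, Mylip, a ligase that degrades the LDL receptor, by 0.14, and Sdc4, a heparan sulfate proteoglycan, by -0.26. Lrp2, the large receptor megalin, differed by -0.16 on normal diet and by 0.76 on Western diet (adjusted p = 0.00927). The diets' differences did not pass a test against each other for Vldlr (adjusted p = 0.381) or Lrp2 (adjusted p = 0.0762). Marco, a scavenger receptor of macrophages, differed by -0.14.

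Genes that answer to cell cholesterol did not pass either. In the list of cholesterol synthesis and SREBP2 control, 14 of 22 values were above 0, with a median of 0.035. On Western diet the median was -0.72 and 9 members passed as lower, where 4.05% of all genes did. The diets' differences passed a test against each other for 0 of the 22. Hmgcs1, which feeds the mevalonate pathway, read 11.06, 9.83, 10.74 and 11.34 in EKO, against 10.98, 11.10 and 11.24 in WT, so that EKO replicate 2 was low and the others sat with WT. Srebf2, the transcription factor of the pathway, differed by -0.27. Targets of the liver X receptors, which sense oxysterols, split into 9 above and 9 below 0 (median -0.0089). Among them Lpcat3, which remodels phospholipids, read 11.79 to 11.94 in EKO and 11.46 to 11.73 in WT, higher on every EKO array, as were 0.848% of all genes, with a difference of 0.26 (adjusted p = 1.0). Ch25h, which makes 25-hydroxycholesterol, was at the array background in both groups.

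Genes that store and burn fat were close to WT as lists. De novo lipogenesis had 16 of 18 values above 0 and a median of 0.11, which was 0.0073 without EKO replicate 1 and 0.24 without EKO replicate 4. Scd2, a stearoyl-CoA desaturase, read 12.43, 12.06, 11.59 and 12.17 on the EKO arrays and 12.35, 10.80 and 11.60 on the WT arrays. Its WT arrays spanned more than the difference of 0.48, and the difference of Fads1, a fatty acid desaturase, was 0.26. The medians were -0.00099 for triglyceride synthesis, 0.019 for lipolysis and the droplet coat, 0.0010 for fatty acid binding, transport and oxidation, 0.014 for the respiratory chain and -0.0032 for brown and beige fat. Lpin1, a phosphatidate phosphatase, had the largest value of the triglyceride list (0.31, adjusted p = 1.0), with EKO arrays at 12.45 to 12.81 and WT arrays at 12.19 to 12.46. Gpat4, an acyltransferase of the same pathway, differed by 0.16. Plin5, another droplet coat protein, differed by -0.11, Acadl, an acyl-CoA dehydrogenase, by -0.22, Uqcrc2, a subunit of complex III, by 0.15, and Kcnk3, a potassium channel of brown fat cells, by -0.26.

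Mature adipocyte genes, 22 of 23 measured, had a median of 0.026 with 16 values above 0. Pparg, the master regulator of fat cells, differed by 0.14 and Cebpd by -0.22. Leptin, whose level follows fat mass, read 12.73, 11.78, 12.19 and 13.15 on the EKO arrays, against 12.72, 12.30 and 12.53 on the WT arrays. The EKO arrays lay on both sides of WT, and the difference for Lep was -0.060 on normal diet, against -1.14 on Western diet (adjusted p = 0.0178). Nrg4, a secreted factor of fat, differed by 0.37 on normal diet and by 1.10 on Western diet (adjusted p = 0.000263). The diets' differences did not pass a test against each other for Lep (adjusted p = 0.237) or Nrg4 (adjusted p = 0.0918). Dpp4, a peptidase, differed by -0.43 on normal diet. Nnt, which carries a known deletion in some C57BL6/J stocks, differed by 0.11 with overlapping arrays. Insulin and glucose uptake had a median of -0.018, and the list with carbonic anhydrases and other metabolic markers 0.021. Branched-chain amino acid breakdown had a median of 0.016. On Western diet its median was 0.44 and 8 of 22 members passed as higher, where 1.64% of all genes did. The diets' differences passed a test against each other for 0 of the 22.

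**Figure D2:**
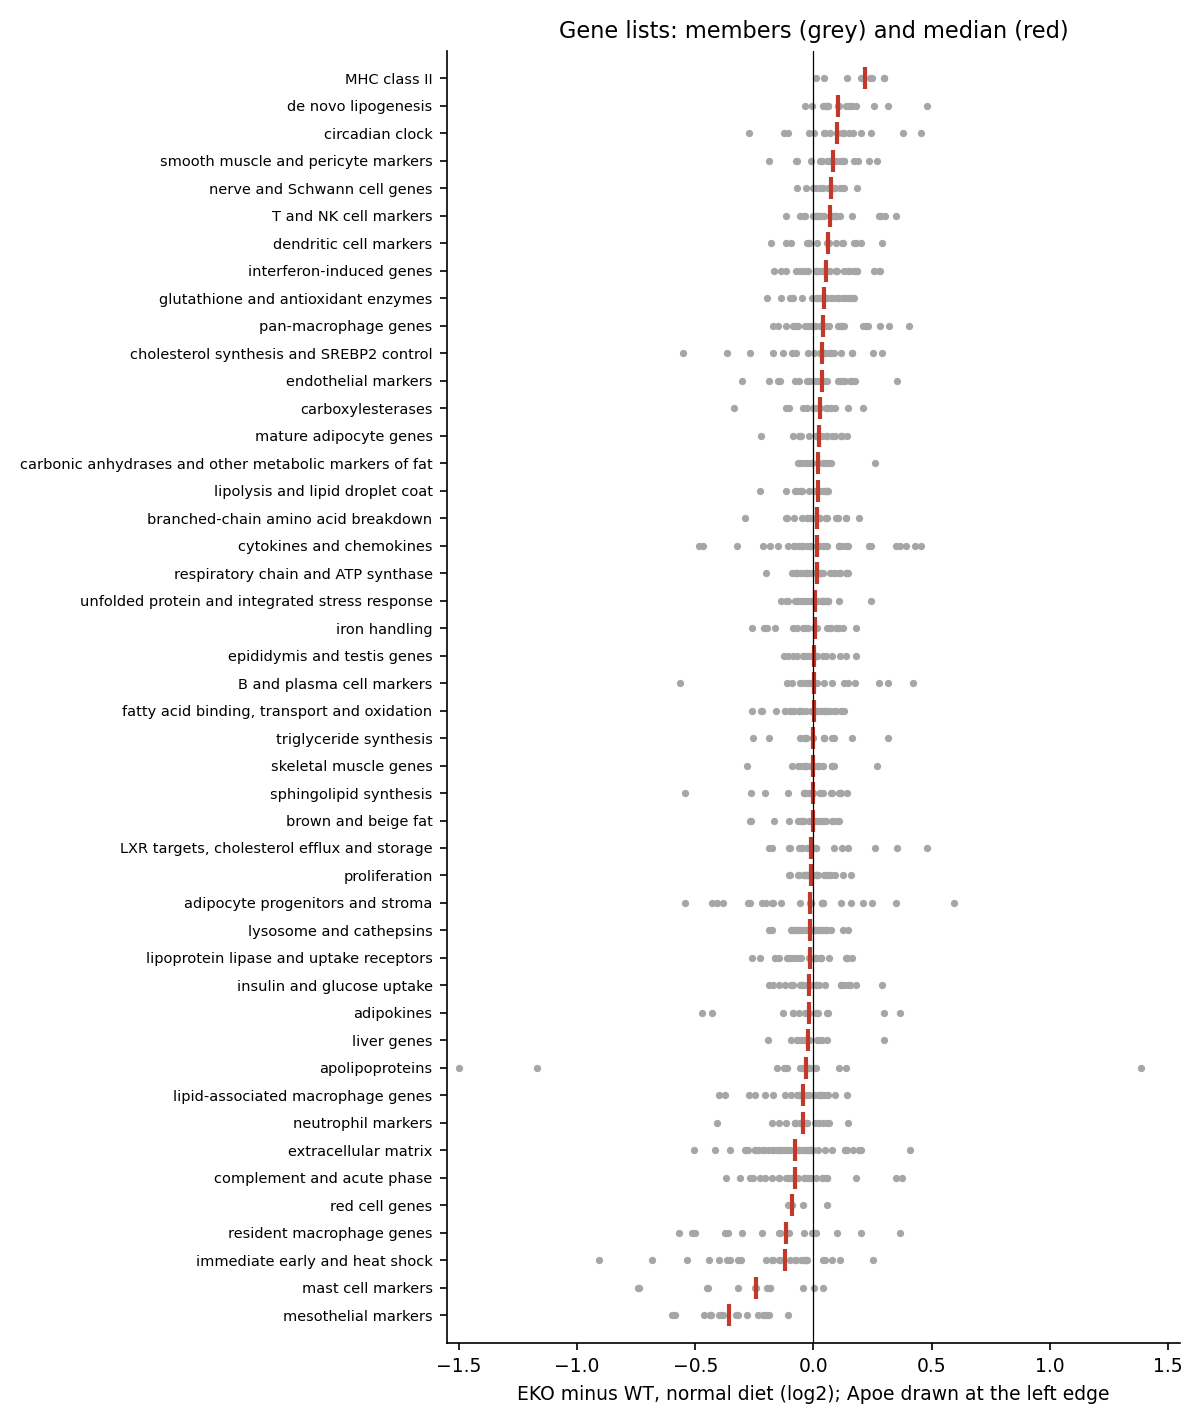
EKO minus WT difference on normal diet (horizontal axis, log2) for each measured member of 46 gene lists (grey points) and the median of each list (red bar), lists ordered by median from high (top) to low (bottom). Medians lie between -0.36 for mesothelial markers and 0.22 for MHC class II. Apoe, at -3.67, is drawn at the left edge of its row.

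Macrophages take up lipid from dying fat cells and lipoproteins and make apolipoprotein E themselves. Their lists lay near 0 on normal diet. The median of 27 pan-macrophage genes was 0.041, with none past the threshold, against -0.73 and 15 members lower on Western diet. The median of 24 lipid-associated macrophage genes was -0.042, against -0.73 and 14 lower. Of all genes, 4.05% passed as lower on Western diet. The diets' differences passed a test against each other for 1 of the 27 and 4 of the 24 genes (0.482% of all genes). Gpnmb, a glycoprotein of lipid-laden macrophages, read 9.23, 8.85, 9.33 and 10.08 on the EKO arrays and 9.57, 9.53 and 10.22 on the WT arrays. These ranges overlapped and the difference was -0.40, while it was -2.28 on Western diet (adjusted p = 0.000994). The diets' differences for Gpnmb did not pass a test against each other (adjusted p = 0.0829). Ms4a6c, a membrane protein of monocytes and macrophages, read 9.34 to 10.20 in EKO and 9.22 to 9.40 in WT on normal diet (0.40), and its Western-diet difference was -0.72 (adjusted p = 0.0164). The diets' differences for Ms4a6c passed a test against each other (adjusted p = 0.0416). That test does not show a rise on normal diet, where the ranges overlapped and the difference did not pass. Adgre4, a surface receptor of the same cells, was higher on every EKO array than on any WT array (7.13 to 7.62 against 7.004 to 7.076), as were 0.848% of all genes. Its difference was 0.28.

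Resident macrophage genes had 16 of 21 values below 0 and a median of -0.12. The list's mean level was 9.352 on EKO replicate 2, 9.967 to 10.26 on the other EKO arrays and 9.945 to 10.24 on WT. The median was 0.019 within the arrays of lower background and -0.59 over the pair of higher background, which holds EKO replicate 2. Leaving out 1 array gave -0.27 to 0.034. Fcna, a lectin, read 8.81, 8.48, 8.99 and 8.995 in EKO against 9.13, 9.45 and 9.43 in WT, with no overlap and a difference of -0.51 (adjusted p = 1.0). Cd209g differed by -0.38, with EKO replicate 2 at 8.31 and the other EKO arrays at 9.12 to 9.23. Both were lowest on EKO replicate 2. Lysosome and cathepsin genes had a median of -0.014 (10 of 36 lower on Western diet) and proliferation genes -0.0099 (21 of 29 lower on Western diet). Of all genes, 4.05% passed as lower on that diet. The test between the diets passed for 2 of the 36 and 3 of the 29 genes (0.482% of all genes). Complement and acute phase genes had a median of -0.079, with Hp, the hemoglobin-binding haptoglobin, at -0.37 and Cfb at -0.26 on normal diet. On Western diet these were -1.51 (adjusted p = 0.00100) and -0.84 (adjusted p = 0.00358). The Western-diet mean of the complement and acute phase list was 10.35 on WT replicate 1, the array with high liver genes. It was 10.37 and 10.46 on the other WT arrays. The test between the diets did not pass for Hp (adjusted p = 0.114) or Cfb (adjusted p = 0.258).

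No antigen-presenting or lymphocyte gene passed. All 8 measured MHC class II genes, whose products present peptides to helper T cells, had positive values, with a median of 0.22, where 53.2% of all genes were below 0. The list's mean level was 9.95, 9.92, 10.10 and 10.45 on the EKO arrays and 9.96, 9.82 and 9.99 on the WT arrays. EKO replicate 4 was the highest and the other EKO arrays overlapped WT, and without it the median was 0.081. H2-Ob, a regulator of peptide loading, read 8.01 to 8.24 in EKO and 7.88 to 7.93 in WT, apart on all arrays, with a difference of 0.25 (adjusted p = 1.0). H2-Aa differed by 0.30. T and NK cell markers had 25 of 30 values above 0 and a median of 0.072, with Il2rb at 0.28 and Cd3g, part of the T cell receptor complex, at 0.30. B and plasma cell markers had 9 values above and 9 below 0 and a median of 0.0024. Among them Cd79b, part of the B cell receptor, was higher on every EKO array (8.65 to 9.21 against 8.56 to 8.60, 0.31). Like H2-Ob it was named for its small p, and 0.848% of all genes were higher without overlap. Medians were 0.061 for dendritic cell markers, 0.051 for interferon-induced genes, 0.015 for cytokines and chemokines and -0.043 for neutrophil markers. Of 31 interferon-induced genes, 24 had values above 0 and 3 were higher at an unadjusted p under 0.05 (0.431% of all genes). For 2 of the 31 all EKO arrays were above all WT arrays (0.848% of all genes). Cxcl9, a chemokine for T cells, differed by 0.43 and Ccl11, the chemokine eotaxin, by -0.32.

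Mast cells are granule-filled immune cells that store histamine and proteases in connective tissue. Their list was lower in EKO than in WT by its values on normal diet, though no member passed. Of 13 measured genes, 11 had values below 0, 6 were lower at an unadjusted p under 0.05 (46.2%, against 0.702% of all genes), and the median was -0.24. Arrays did not overlap for 3 of them, where 0.868% of all genes were lower without overlap. At the array background in both groups were 3 of the 13 (Fcer1a, Ms4a2 and Mrgprb2), of which Ms4a2 is among the 6 and Mrgprb2 among those without overlap. Without the dimmest 25% of genes, 8 of the list were left, with 4 at the same cut. The Western-diet median was -0.025, and the test between the diets passed for 0 of the 13. These markers were named as low in EKO with earlier results of the same arrays known, so the count is a description. In bulk tissue, fewer mast cells and less of these RNAs per cell cannot be told apart.

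The proteases Mcpt4 and Cpa3 had the largest differences. Mcpt4, the mouse chymase of connective tissue mast cells, read 9.35, 8.41, 9.05 and 8.94 on the EKO arrays, against 9.17, 9.93 and 9.94 on the WT arrays. WT replicate 1 lay among the EKO arrays and EKO replicate 2 was the lowest. The difference was -0.74 ± 0.21 (adjusted p = 1.0). Cpa3, carboxypeptidase A of the granules, read 9.51, 8.05, 9.05 and 9.20 in EKO, against 8.96, 9.67 and 10.44 in WT, and differed by -0.74. Its groups overlapped at WT replicate 1. Without WT replicate 1 the Cpa3 difference was -1.11, without WT replicate 3 -0.36 and without EKO replicate 2 -0.44. Tpsb2, a tryptase, and Cma1, a chymase, differed by -0.45 and -0.32, and Tpsab1, another tryptase, by -0.044. Mrgprb1, a receptor of the Mrgpr family, read 6.71, 6.92, 6.92 and 6.90 in EKO against 7.21, 7.40 and 7.30 in WT, without overlap, at -0.45 ± 0.099. Kit, the stem cell factor receptor of mast cells, and Gata2, a transcription factor they need, differed by 0.0033 and 0.043. Cpa3, Tpsb2, Cma1, Tpsab1, Kit and Gata2 were chosen after their values were seen.

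The mean level of the 13 genes was 7.69, 7.52, 7.65 and 7.70 on the EKO arrays and 7.73, 8.01 and 8.05 on the WT arrays. All EKO arrays were below all WT arrays, with WT replicate 1 nearest and WT replicates 2 and 3 high. On Western diet the list mean was 7.633 to 7.689 on the WT arrays and 7.613 to 7.687 on the EKO arrays. Western-diet WT fat thus read near the EKO level, and the difference rested on WT replicates 2 and 3 of the normal diet. Without WT replicate 2, or without WT replicate 3, 3 genes were left at an unadjusted p under 0.05, and without WT replicate 1 there were 7, with Tpsb2 past the threshold (-0.70, adjusted p = 0.0361). The median over the pair of arrays with higher background was -0.088.

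The promoters of Mcpt4 and Cpa3, the pair with the largest differences of the list, are shown with the matches to the same 4 motifs in capitals. The windows lie on the minus strand at chr14:56062261-56062560 for Mcpt4 and chr3:20242132-20242431 for Cpa3 (RefSeq, GRCm38.p6). Mcpt4 holds 1 TATAAA. Cpa3 holds 2, of which 1 reads on the other strand as TTTATA, and 1 AGATAA. The other motifs had 0 matches in both.
Mcpt4: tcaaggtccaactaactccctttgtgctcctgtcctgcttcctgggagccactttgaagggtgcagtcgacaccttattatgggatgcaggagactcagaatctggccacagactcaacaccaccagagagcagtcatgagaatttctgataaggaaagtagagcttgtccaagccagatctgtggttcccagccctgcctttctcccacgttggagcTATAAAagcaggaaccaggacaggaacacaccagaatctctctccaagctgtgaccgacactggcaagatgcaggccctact
Cpa3: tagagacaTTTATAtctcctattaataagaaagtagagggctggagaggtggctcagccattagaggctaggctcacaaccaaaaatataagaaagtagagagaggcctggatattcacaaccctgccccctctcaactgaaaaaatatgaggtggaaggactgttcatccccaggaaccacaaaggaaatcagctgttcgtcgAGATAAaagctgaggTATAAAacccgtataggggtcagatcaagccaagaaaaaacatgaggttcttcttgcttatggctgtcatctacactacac

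Mesothelial cells form the sheet that covers the fat pad. All 18 measured mesothelial genes had values below 0 (53.2% of all genes did), with a median of -0.36 and none past the threshold. Of the 18, 8 were lower at an unadjusted p under 0.05 (0.702% of all genes), and for 1, Krt19, the arrays did not overlap (0.868% of all genes). On Western diet the median was 0.51, in the opposite direction, and the test between the diets passed for 0 of the 18. Krt19, a keratin, read 8.93, 8.29, 9.15 and 9.18 on the EKO arrays, against 9.38, 9.41 and 9.64 on the WT arrays. The groups did not overlap, EKO replicate 2 was the lowest, and the difference was -0.59 ± 0.17 (adjusted p = 1.0). Bnc1, a transcription factor of surface epithelia, differed by -0.44. The difference between the diets did not pass for Krt19 (adjusted p = 0.0568) or Bnc1 (adjusted p = 0.079).

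The mean level of the 18 genes was 9.81, 9.49, 10.03 and 10.03 on the EKO arrays and 10.11, 10.01 and 10.44 on the WT arrays. EKO replicates 3 and 4 overlapped WT replicate 2, and WT replicate 3 was the highest. The median was -0.23 without EKO replicate 2 and -0.23 without WT replicate 3. The count of 8 became 1 without WT replicate 3, 3 without EKO replicate 2, 4 without EKO replicate 1, 5 without WT replicate 1 and 12 without EKO replicate 3 or 4. The share of pad surface in each piece of tissue was not measured.

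**Figure D3:**
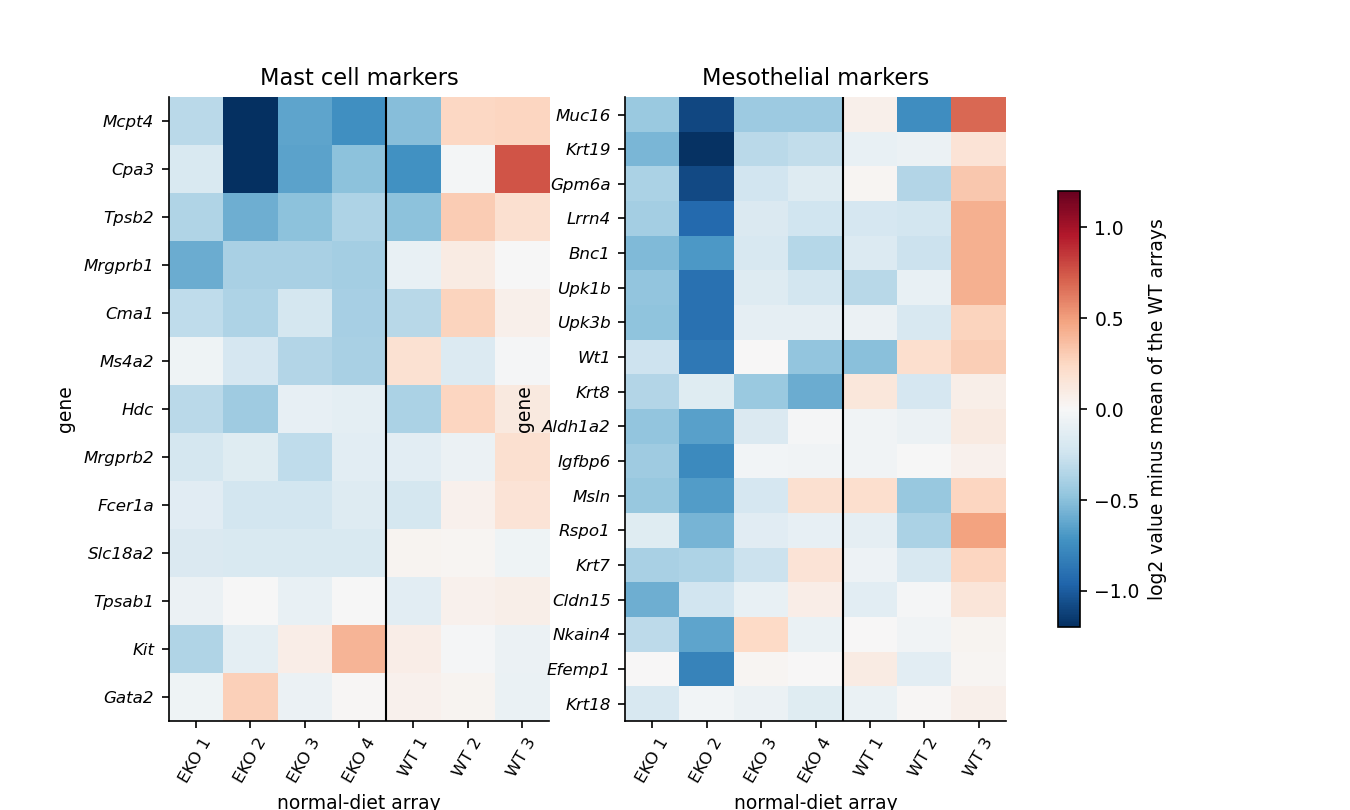
Level of each mast cell (left) and mesothelial (right) gene on the normal-diet arrays, as the log2 value minus the mean of the 3 WT arrays (colour, blue lower and red higher, capped at 1.2). Columns are arrays, EKO left and WT right of the line, and rows are genes ordered by difference. EKO replicate 2 is darkest for Mcpt4, Cpa3 and most mesothelial genes, WT replicate 1 is blue for Mcpt4 and Cpa3, and WT replicate 3 is highest for most mesothelial genes.

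The stroma differed little as lists. Extracellular matrix had 40 of 50 values below 0 and a median of -0.078, where 53.2% of all genes were below 0. At an unadjusted p under 0.05, 2 members were lower, against 0.702% of all genes. On Western diet the median was -0.41 with 19 members lower (4.05% of all genes). The test between the diets passed for 1 of the 50 (0.482% of all genes). Col1a1, the chain of type I collagen, read 10.20, 10.34, 10.38 and 10.55 in EKO and 10.52, 10.69 and 10.59 in WT, overlapping at EKO replicate 4. It differed by -0.23 (-0.62 on Western diet, adjusted p = 0.00278). The diets' differences for Col1a1 did not pass a test against each other (adjusted p = 0.294). Loxl1, a collagen cross-linking enzyme, differed by -0.25. The matrix median was -0.021 without EKO replicate 2 and -0.19 without EKO replicate 4. Adipocyte progenitor genes had a median of -0.014. In that list Sfrp1, a secreted Wnt inhibitor, read 9.64, 9.96, 10.25 and 9.72 in EKO against 9.53, 8.80 and 9.55 in WT (0.59), and Smpd3, a sphingomyelinase, differed by -0.54. Smooth muscle and pericyte genes had 15 of 19 values above 0 (median 0.082). Among them were Lmod1 at 0.24 and Higd1b at 0.27, both higher on every EKO array, as were 0.848% of all genes. Endothelial markers had a median of 0.035 and nerve and Schwann cell genes 0.073.

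Stress and housekeeping lists held no pass. The list of immediate early and heat shock genes, known to respond within minutes to handling and stimuli, had 23 of 28 values below 0 and a median of -0.12. WT replicate 2 was the high array, with a list mean of 9.96 where the other normal-diet arrays read 9.03 to 9.34, and without it the median was 0.099. Jun, a transcription factor of the list, was higher on every EKO array (10.51 to 10.66 against 10.19 to 10.39, 0.25), and Nr4a2 was lower on every one (-0.15). Of all genes, 0.848% were higher and 0.868% lower without overlap. The unfolded protein and integrated stress response had a median of 0.0074. Asns, asparagine synthetase, a target of ATF4, read 12.03 to 12.44 in EKO and 11.87 to 12.02 in WT (0.24), against a Western-diet difference of 1.06 (adjusted p = 4.62e-05), and the test between diets passed (adjusted p = 0.0178). Circadian clock genes had a median of 0.098, with Ciart at 8.94 on EKO replicate 2 and 7.13 to 7.64 on the other EKO arrays, against 6.92 to 7.52 on WT. Medians were 0.046 for glutathione and antioxidant enzymes, 0.028 for carboxylesterases, -0.0023 for sphingolipid synthesis and 0.0045 for iron handling. Lists of tissue that may come along with the pad read -0.0010 for skeletal muscle, 0.0040 for epididymis and testis, -0.022 for liver and -0.093 for red cells, with 11 of 21 epididymis and testis genes at the array background.

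Beside Apod, the 4 other named genes with the smallest p among the higher values were Hspb6, Gramd1b, Tcim and Klf12, all with adjusted p = 1.0. Hspb6, a small heat shock protein, read 11.61, 11.45, 11.28 and 11.33 on the EKO arrays and 10.98, 10.33 and 10.79 on the WT arrays. The groups did not overlap and the difference was 0.72 ± 0.15. Gramd1b, which carries cholesterol from the plasma membrane to the endoplasmic reticulum, read 10.30, 10.42, 10.50 and 10.44 in EKO and 9.80, 9.78 and 10.29 in WT. EKO replicate 1 and WT replicate 3 were next to each other, and the difference was 0.46 ± 0.11. Tcim and Klf12, a transcription factor, differed by 0.47 and 0.46, each higher on every EKO array. Of all genes, 0.848% were higher without overlap, and these 4 were picked by their p. Of the 4, Tcim also passed on Western diet (0.51, adjusted p = 0.0241).

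Among the lower values the 5 were Lgals7, Mrgprb1, Slc6a4, C5ar2 and Stk26. They too were picked by their p, and 0.868% of all genes were lower without overlap. Lgals7, a galectin of stratified epithelia, read 7.90, 8.22, 8.39 and 8.29 in EKO against 8.59, 9.06 and 9.07 in WT. The groups were apart, and the difference was -0.71 ± 0.13 (adjusted p = 0.446). Without WT replicate 1 it passed (-0.87, adjusted p = 0.0387), and on Western diet it was -0.096. The diets' differences for Lgals7 did not pass a test against each other (adjusted p = 0.172). Slc6a4, the serotonin transporter, read 7.73 to 8.13 in EKO and 8.26 to 8.63 in WT (-0.45). C5ar2, a receptor of complement C5a, read 7.64, 7.70, 7.55 and 7.69 in EKO against 7.90, 7.96 and 8.02 in WT, with a difference of -0.32 ± 0.082. The C5ar2 groups were apart here and it passed on Western diet (-0.66, adjusted p = 0.000442). Stk26, a kinase, differed by -0.47 with overlapping arrays.

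Several of these genes lie on chromosome 7, which also holds Apoe. A mutation made in another strain and crossed to C57BL6/J can carry neighbouring donor chromosome with it, and whether that holds for these mice is not given in the sources used here, and its part in these values was not tested. Of the 50 measured genes nearest to Apoe, 25 on each side in RefSeq order, 0 were higher and 2 lower at an unadjusted p under 0.05 (4.0%, against 1.13% of all genes). These were Apoc1, 1 place away, and Ercc2, a DNA repair helicase 17 places away (-0.33). The direct neighbours Tomm40, an import pore of mitochondria, and Nectin2, an adhesion protein, differed by 0.026 and 0.15. From 26 to 500 places away, 26 of 706 genes (3.68%) were past the same cut, 13 in each direction. Beyond 500 places it was 6 of 977 (0.614%), and on all other chromosomes 191 of 18121 (1.05%), with a range of 0.212% to 1.78% over the 19 other chromosomes apart from Y. The limit of 500 places was set after the values were seen, so the shares are a description.

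Together 28 of the 756 genes within 500 places of Apoe were past the cut on normal diet, and 21 of them had the same sign on Western diet, measured in other animals, where 50.8% of all genes had the same sign on both diets. Krtdap, Klk1b1 and Mrgprx2, 3 of the 28, were at the array background in both groups, and Krtdap is among the 21. Of the 21, 4 also passed on Western diet, where 5.69% of all genes and 4.76% of the 756 passed. They were C5ar2, Ap2s1, a clathrin adaptor subunit (-0.40 on normal diet and -0.64 on Western diet, adjusted p = 0.0105), Calm3, a calmodulin (-0.39 and -0.69, adjusted p = 0.0294), and Lilra5, a leukocyte receptor (0.31 and 0.38, adjusted p = 0.0462). Ap2s1 read 10.02, 10.05, 10.15 and 10.38 in EKO against 10.39, 10.78 and 10.49 in WT, and EKO replicate 4 lay next to WT replicate 1. Lilra5 read 7.77, 7.94, 7.77 and 8.05 in EKO against 7.61, 7.51 and 7.60 in WT, without overlap. Hspb6, Lgals7 and Mrgprb1 lie 219, 163 and 480 places from Apoe. Ap2s1, Calm3, Lilra5, Ercc2, Tomm40 and Nectin2 were chosen after their values were seen. A change of sequence under the probes and a change of RNA level give the same reading on an array, and they cannot be told apart here.

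**Figure D4:**
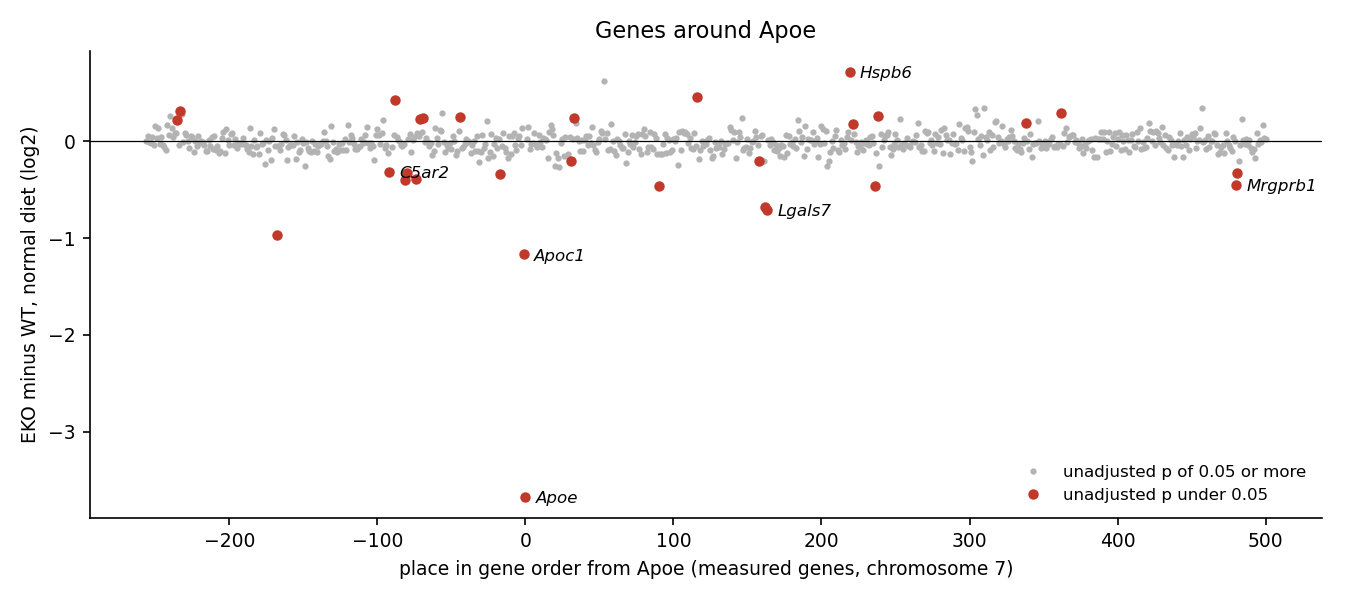
EKO minus WT difference on normal diet (vertical axis, log2) of the measured genes within 500 places of Apoe in RefSeq gene order on chromosome 7 (horizontal axis, places). Red points are genes at an unadjusted p under 0.05 and grey points the rest. Apoe (-3.67) lies far below all others, next to it Apoc1 (-1.17), and 28 further red points are spread over both sides, 13 above and 15 below 0, Apoc1 among them.

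Across the 19936 genes other than Apoe, the normal-diet and Western-diet differences had Pearson's r = 0.078 and Spearman's rho = 0.049. The diets share no array, and genes are not independent replicates. Differences spread less on normal diet (SD 0.11 over genes) than on Western diet (SD 0.28). Signs were the same for 50.8% of all genes and for 117 of the 225 genes at an unadjusted p under 0.05 (52.0%). Of the 225, 20 passed on Western diet with the same sign and 7 with the opposite one. The 326 genes higher on Western diet had a median of 0.55 there and 0.027 on normal diet, and the 807 lower ones other than Apoe -0.67 there and -0.023 on normal diet.

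The test of whether the 2 differences are unlike passed for 96 genes (0.482%). Over these the median size was 1.24 on Western diet and 0.065 on normal diet, and 5 of them were at an unadjusted p under 0.05 on normal diet. Apoe was not among the 96 (adjusted p = 0.685).

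**Figure D5:**
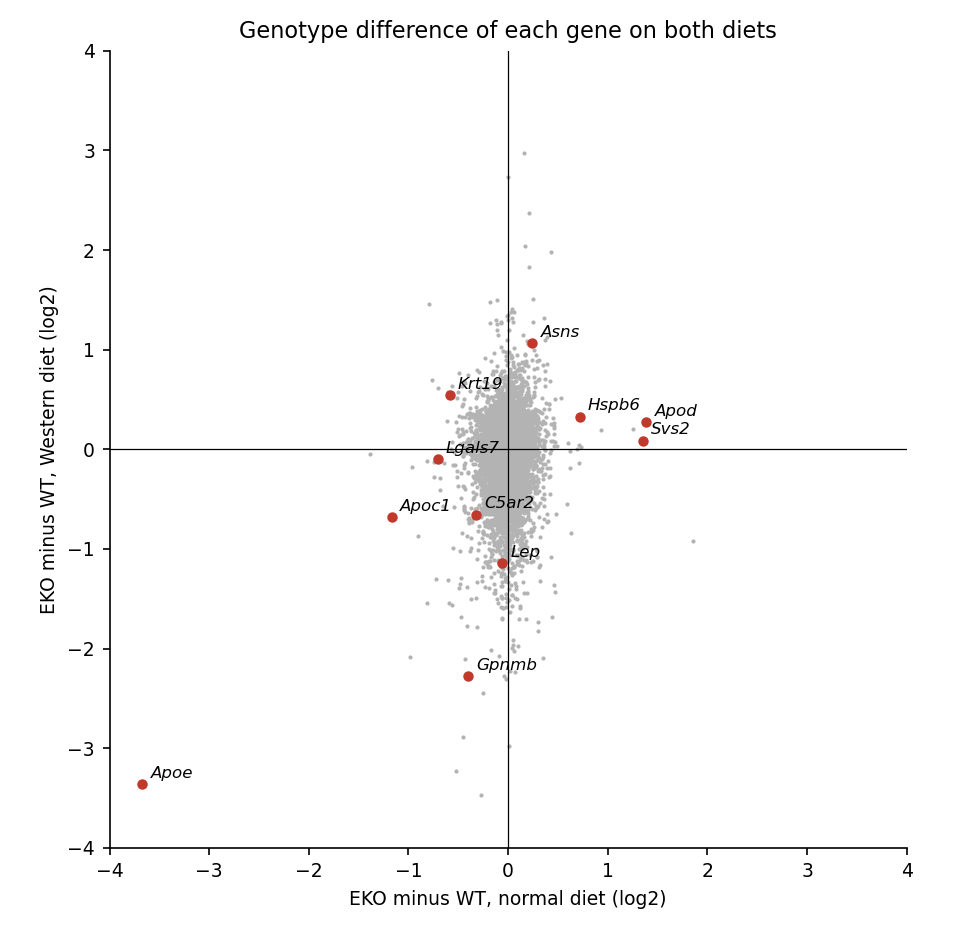
EKO minus WT difference of each gene (log2) on normal diet (horizontal axis) and Western diet (vertical axis), one point a gene, with some named genes in red. The cloud is taller than it is wide (SD 0.28 and 0.11), Apoe sits alone at -3.67 and -3.36, and Apod lies to the right at 1.39 and 0.28.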

How the data were processed

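Fat of 14 mice was measured on 14 arrays, of which 7 (4 EKO and 3 WT on normal diet) make the comparison. The values are log2 levels in the authors' deposited series table, made with RMA (background correction, quantile normalization and probe summary) per the submitters' processing notes, which give no version. Scanner files were not used here, and the genome build of the array design is not given in the sources used here. Of 34760 rows, 21640 had 1 gene symbol, 1321 several and 11799 none. Through Entrez IDs 21553 matched RefSeq (GRCm38.p6), and 0 symbols changed. For 954 genes with several probe sets, the set with the highest mean over the 14 arrays was kept, leaving 19937 genes. RefSeq served for names, gene order and promoters only.

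limma 3.58.1 in R 4.3.3 fitted 1 mean for each of the 4 groups over all 14 arrays (10 residual and 4.41 prior degrees of freedom), with the contrast EKO minus WT on normal diet. The p-values were adjusted by the Benjamini-Hochberg method over all 19937 genes, with a threshold of 0.05. Python 3.11.15 made counts and figures. The fit was run on simulated data with independent noise, so that run did not test it under differences shared by an array's genes. The labels call the arrays biological replicates but give no litter or cage.

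The rule for naming picked Apoe, Lep, Nnt, genes that passed and the 5 with the smallest p in each direction. It also picked the 2 with the smallest p in each list (up to 8 for apolipoproteins and for lipoprotein receptors). Predicted genes, small RNAs and receptor segments were left out. The text does not describe every gene that the rule picked, for example Usp18, Oas3, Clec9a and Mmp9. The genes, the 46 lists and the tests were chosen with earlier results of these data known. Genes named for a small p tend to have groups that do not overlap, so a lack of overlap in them adds no evidence. Lists are described by counts and medians, with no test of a list. Same-numbered EKO and WT arrays were checked for pairing: their deviations correlated at 0.162, -0.109 and 0.207. Arrays of unlike number correlated at -0.557 to 0.41. The fit therefore used no pairing by number, though so few arrays cannot exclude one. Alternatives changed the samples in the fit, scaling, prior, array weights, dim rows, probe sets, array background and replicates. Those with a block in the 7-array fit, and that over all rows, were added after seeing the data.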

Additional observations from a re-analysis of the deposited data

Results flagged for a closer look

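In 14 of 149 EKO groups of 4 normal-diet arrays tested gene by gene, the highest or lowest array lay apart from the other 3 by more than Dixon's 95% critical value of 0.829, and chance flags about 1 in 20 groups. The seminal vesicle genes, 9 of the 149, were picked after their values were seen, so their flags were fixed beforehand. The count of 14 therefore cannot be set against the chance rate. EKO replicate 3 was the high array for the seminal vesicle genes Svs2 (12.25), Svs3b (9.772), Svs5 (11.83), Svs6 (8.077), Sva (7.955) and Pate4 (7.518). EKO replicate 2 was the low array for Cd209g (8.312), Steap3, an iron reductase (9.932), and the mesothelial genes Muc16 (7.174), Rspo1 (9.852) and Efemp1 (11.85). The array apart was low for Ch25h (6.38, at the array background), Mrgprb1 (6.707) and Slc2a1, a glucose transporter (9.837).

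The genotype difference passed the test between the diets for 2 named genes. Asns had a Western minus normal difference of 0.821, and Ms4a6c of -1.12.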

How the results depend on the processing

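Apoe passed in every alternative, at -3.81 to -3.57, and the number of genes past the threshold (1) became 2 with trended and robust variance, array weights, without the dimmest 25% or 50%, with the background block, within the 9 arrays of lower background, and with the replicate block. Leaving out 1 array gave 1 to 3. The higher count (0) became 1 with those settings other than the 9 arrays, where the second gene was lower (2 lower), and was 0 to 1 without 1 array, where the lower count was 1 to 3. The highest counts came without WT replicate 1. The count of genes whose difference depended on diet (96) was 285 with quantile scaling, 2338 with array weights, 320 with the background block, 566 within the 9 arrays, 159 with the replicate block and 37 to 148 without 1 array (37 without WT replicate 2, 45 without WT replicate 3, 57 without EKO replicate 1 and 148 without EKO replicate 2). The count at an unadjusted p under 0.05 (226) was 117 to 1019 over the alternatives, and the Western-diet count (1134) was 966 (without EKO replicate 3 on normal diet) to 6789 (array weights). The cause was not tested.

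Of 140 genes under the alternatives, 129 kept their direction throughout, and of 2743 values 2710 kept direction and side of the threshold, 9 passed newly and 24 changed sign. Within the 9 arrays the changed values were -0.0244 for Apoc4, -0.0683 for Gpat4, 0.27 for Lep, -0.0727 for Scarb1, -0.0132 for Gata2 and 0.0638 for Efemp1. Kit was -0.0128 with quantile scaling, -0.0977 with the replicate block and -0.132 with it in the 7-array fit. Leaving out 1 array gave -0.159 to 0.00745 for Bpgm, -0.0332 to 0.17 for Cs, -0.0131 to 0.345 for Gpat4, -0.289 to 0.167 for Lep, -0.0286 to 0.223 for Ppt1, -0.0366 to 0.345 for Scarb1, -0.132 to 0.125 for Kit, -0.0371 to 0.0813 for Gata2, -0.423 to 0.00847 for Rspo1 and -0.263 to 0.015 for Efemp1. A pairing of the mice by number was not established, and the replicate block is given as an alternative only.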
